A study of Rattus norvegicus with 6 samples.

Results

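The genes described here encode calcineurin, its NFAT transcription factors and its RCAN regulators, 9 genes chosen by symbol from a table of 40456 genes: Ppp3ca, Ppp3cb, Ppp3r1, Nfatc1, Nfatc2, Nfatc3, Nfatc4, Rcan1 and Rcan2. All 9 had a row, and 8 passed the filter on low counts. The libraries were poly-A selected RNA sequencing of H9c2 (2-1) cells, a line grown from rat heart tissue that the labels call wild type and cardiomyocyte. All cells spent 5 days in low serum with 1 µM retinoic acid and then 24 h with a locked nucleic acid gapmer at 25 nM, an antisense oligonucleotide that directs RNase H to its target RNA. The control group (3 libraries) received a negative control gapmer, and the Tug1 knockdown group (3 libraries) a gapmer that targets Tug1, a long non-coding RNA. The design uses 1 cell line and 1 gapmer per group, so an effect of losing Tug1 and an effect of that oligonucleotide cannot be told apart. Nothing in the labels says that libraries came from separate cultures, so p-values measure the spread between these libraries, which may be technical.

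Calcineurin is a phosphatase switched on by calcium and calmodulin. It pairs a catalytic A subunit (Ppp3ca, Ppp3cb or Ppp3cc) with a small calcium-binding B subunit (Ppp3r1, or Ppp3r2 in testis). It removes phosphates from the NFAT factors Nfatc1 to Nfatc4, which then enter the nucleus and act with partners such as AP-1, GATA and MEF2 proteins. NFAT kinases reverse the step and return the factors to the cytoplasm. RCAN proteins bind calcineurin and can inhibit it, and a short form of Rcan1 is transcribed from an internal promoter that NFAT itself switches on, so Rcan1 RNA is widely read as an output of the pathway. In heart muscle the pathway is known for driving hypertrophic growth, and in skeletal muscle for fibre type and myoblast fusion.

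The sequences that set the comparison are the gapmers, as the labels' protocols give them, written 5′ to 3′ in lower case.
Tug1 gapmer: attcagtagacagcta
negative control gapmer: gctcccttcaatccaa

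Promoter windows of 300 bases (250 before and 50 after a transcript start, RefSeq, rat build GRCr8) were found for 6 of the 9 genes. The windows of the RCAN pair are shown because Rcan1 and Rcan2 moved in opposite directions. Rcan1 (chr11:45118187-45118486, minus strand) starts 69.8 kb inside its gene span, so this window belongs to an internal start and not to the outermost one. Rcan2 (chr9:24672140-24672439, minus strand) starts 2.05 kb inside its span. Capitals mark the NFAT core GGAAA on either strand (TTTCC when on the other strand) and the AP-1 motif TGANTCA. The motifs do not overlap each other in these windows.
Rcan1: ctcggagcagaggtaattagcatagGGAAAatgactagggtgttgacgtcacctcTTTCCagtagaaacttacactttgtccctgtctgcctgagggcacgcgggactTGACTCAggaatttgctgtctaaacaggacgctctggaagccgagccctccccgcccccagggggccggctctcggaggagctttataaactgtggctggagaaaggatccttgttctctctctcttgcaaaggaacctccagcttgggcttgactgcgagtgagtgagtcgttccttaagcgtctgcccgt
Rcan2: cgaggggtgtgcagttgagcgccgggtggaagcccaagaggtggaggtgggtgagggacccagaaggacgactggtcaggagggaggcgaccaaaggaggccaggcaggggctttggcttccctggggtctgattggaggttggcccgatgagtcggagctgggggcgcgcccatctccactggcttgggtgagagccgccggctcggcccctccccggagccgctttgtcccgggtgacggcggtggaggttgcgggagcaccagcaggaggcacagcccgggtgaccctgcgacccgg

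The Rcan1 window held 2 GGAAA cores, at bases 26 to 30 and 56 to 60 from its 5′ end, and 1 TGANTCA, at bases 109 to 115. At least 2 cores were present in 28.2% of 27457 windows of this length, at least 1 TGANTCA in 7.33%, and both features together in 2.15% (1.41% of 10529 windows of tested genes). These cut-offs equal the Rcan1 window's own counts, so the shares describe that window and test nothing. The Rcan2 window held neither motif. Among the other windows, those of Ppp3cb and Ppp3r1 held 1 GGAAA each, and those of Ppp3ca and Nfatc2 held none. These matches describe letters in a short window, and no binding was measured.

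Total counts were 12978548 to 13544337 per library. Expression is reported in CPM, counts scaled by library size with a TMM correction for composition. The targeted RNA, Tug1, stood at 52.0 to 55.4 CPM in the controls and 11.2 to 12.5 CPM after knockdown, so the libraries follow their labels. Few markers of the label cardiomyocyte were detected. Of 8 such markers 2 (Tnnt2 and Actn2) exceeded 3 counts in every library, Actn2 with only 11 to 24 counts. Myh6, Myh7, Ryr2 and Nkx2-5 stayed at or under 3 counts, and Tnni3 and Nppa at or under 4. Of 6 skeletal myoblast markers 5 exceeded 3 counts in every library, and their summed level, carried mainly by Myog, was 449 to 464 CPM in controls and 690 to 747 CPM after knockdown. Myog, Des, Tnni1 and Ckm were called higher and Myod1 lower (59.9, 62.8 and 56.3 CPM in the controls, 46.6, 43.9 and 52.7 CPM after knockdown). Fibroblast markers summed to 28502 to 29444 CPM and 27077 to 29102 CPM, with Col3a1 and Dcn called higher and Col1a1 and Thy1 lower. Smooth muscle markers summed to 686 to 744 CPM in controls and 835 to 960 CPM after knockdown, and cardiomyocyte markers, nearly all Tnnt2, to 336 to 371 CPM and 393 to 441 CPM. None of 4 leukocyte markers passed the filter, Ptprc was at 0 in every library, and 3 of 4 endothelial markers were at or under 3 counts. The part of these marker shifts in the results below was not tested. In bulk RNA, fewer cells of a type and less RNA per cell cannot be told apart.

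Of the 8 tested genes, 5 changed after Tug1 knockdown: Nfatc3, Nfatc4 and Rcan2 rose, and Ppp3r1 and Rcan1 fell. A change means an adjusted p under 0.05 in edgeR's quasi-likelihood fit of all 14216 tested genes. At that threshold 61.7% of all tested genes were called, 30.8% higher and 30.9% lower, so 5 of 8 is close to the background and says nothing particular about the pathway as a group. The same 5 genes were those whose control and knockdown libraries did not overlap, a property of 65.6% of tested genes. The median log2 fold change of the 8 genes was 0.25, beside 0.00 over all tested genes.

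**Figure D1:**
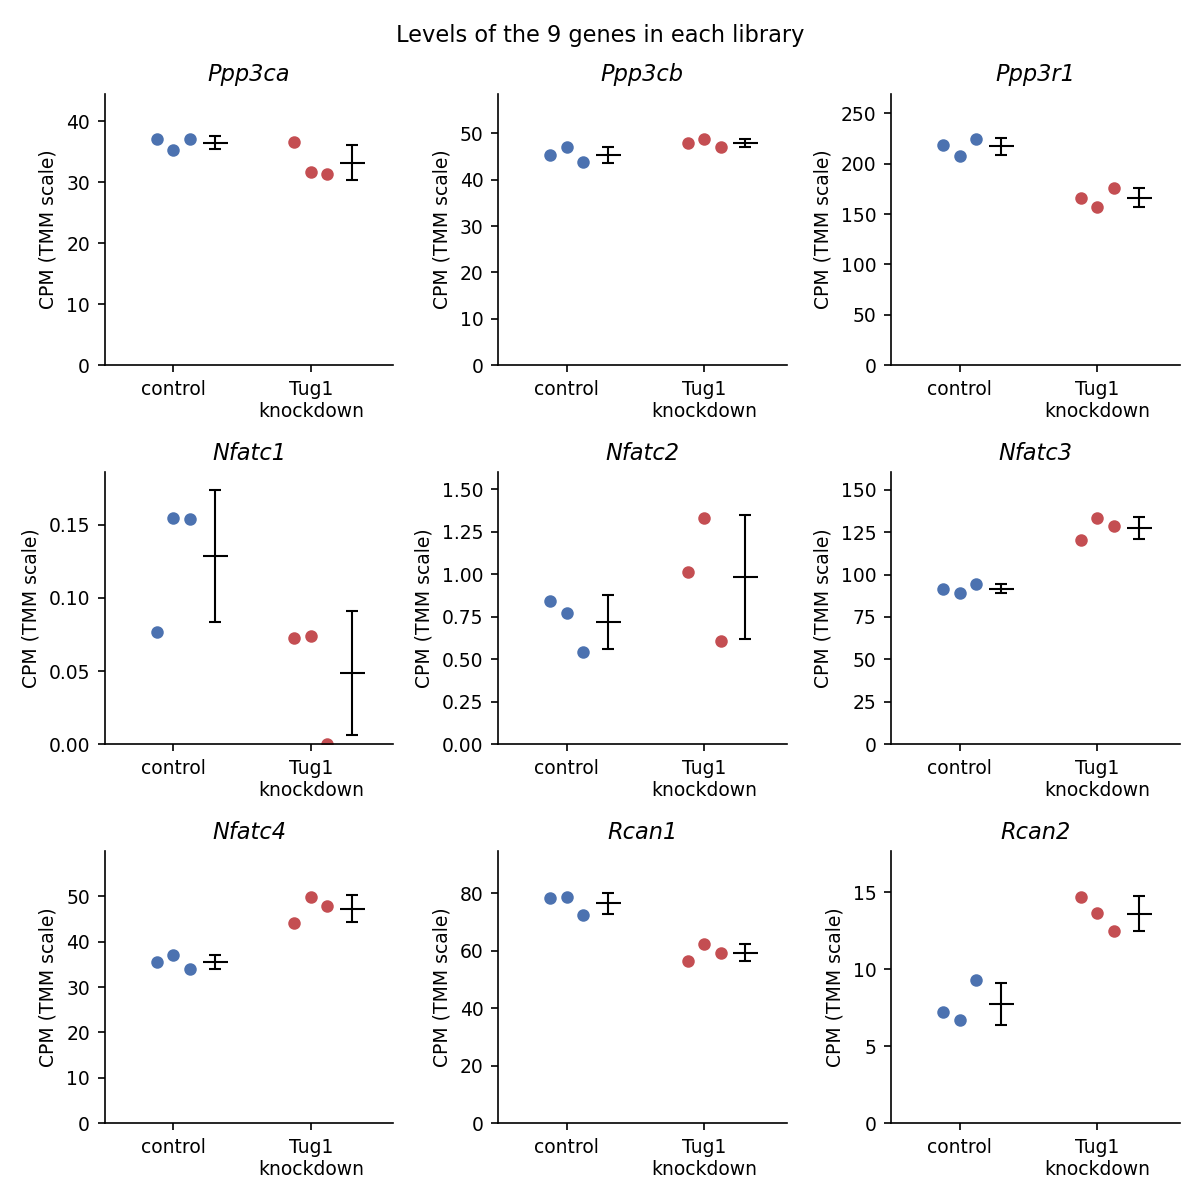
Level of each of the 9 genes in every library, in CPM on the TMM scale with axes from 0; points are libraries (control in blue, Tug1 knockdown in red), and the bar beside them is the mean with the SD (n = 3). Nfatc3, Nfatc4 and Rcan2 were higher in every knockdown library than in every control library and Ppp3r1 and Rcan1 lower, while Nfatc1 was at 2 counts or fewer throughout.

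Neither Ppp3ca nor Ppp3cb, the catalytic subunits among the 9 genes, passed the threshold. Ppp3ca, the alpha isoform, had 37.1, 35.3 and 37.1 CPM in control replicates 1 to 3 and 36.5, 31.7 and 31.4 CPM in knockdown replicates 1 to 3. The groups overlapped, because knockdown replicate 1 stayed at the control level. The knockdown mean was 91.0% of the control mean, -0.14 on the log2 scale (SE 0.0744, 95% interval -0.29 to 0.02, edgeR adjusted p 0.121). Ppp3ca is a very long gene, longer in genomic span than 97.3% of tested genes, and the long genes of this table were mostly higher after knockdown. The longest 5% by span (655 genes) had a median log2 fold change of 0.40, with 397 called higher and 55 called lower. An offset that removes this trend from each library put Ppp3ca at -0.49 and made it a call (edgeR adjusted p 5.15e-06). The call was also made when knockdown replicate 1 was left out (-0.21, edgeR adjusted p 0.0299).

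Ppp3cb, the beta isoform, linked to hypertrophic growth in mouse heart, had 45.3, 47.1 and 43.7 CPM in the controls and 47.9, 48.8 and 47.0 CPM after knockdown. The knockdown values lay at the top of the control range or just above it. Its log2 fold change was 0.08 (SE 0.0623, 95% interval -0.05 to 0.21), with an edgeR adjusted p of 0.275. The remaining catalytic isoform, Ppp3cc, was not among the 9 genes but belongs to the enzyme. Its level was 17.3 ± 1.52 CPM in the controls and 25.0 ± 1.62 CPM in the knockdown libraries (SD, n = 3), a rise of 0.53 on the log2 scale (edgeR adjusted p 2.27e-05).

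The regulatory subunit fell. Ppp3r1, which encodes calcineurin B, the calcium-binding partner that the common catalytic isoforms need for activity, had 219, 208 and 225 CPM in the controls and 166, 157 and 176 CPM after knockdown. The groups did not overlap, and the highest knockdown library was well under the lowest control. The level after knockdown was 76.7% of the control level, a fall of 0.38 in log2 units (SE 0.0509, edgeR adjusted p 7.69e-07). The testis isoform Ppp3r2 had 0 to 3 counts per library, so no fold is given. RefSeq lists pseudogenes of Ppp3r1 and Ppp3cb, and how reads shared with them were counted is not given in the sources used here.

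Among the transcription factors, the pair that was well expressed rose. Nfatc3 had 91.5, 88.9 and 94.6 CPM in the controls and 120, 133 and 129 CPM after knockdown. The gap between the groups was wider than the spread within either. The log2 fold change was 0.48 (SE 0.0543, 95% interval 0.36 to 0.59), or 139% of the control level, with an edgeR adjusted p of 8.35e-08. Nfatc4 had 35.5, 37.0 and 34.0 CPM in the controls and 44.1, 49.9 and 47.8 CPM after knockdown. Its groups did not overlap either, and the log2 fold change was 0.41 (SE 0.0689, 95% interval 0.27 to 0.56, edgeR adjusted p 1.77e-05). NFATc3 and NFATc4 proteins are both known calcineurin targets in heart muscle. In the GRCr8 annotation Nfatc4 overlaps Ripk3, which had 967 to 1077 counts per library, and Nfatc3 overlaps Esrp2, which had 1 to 7. Whether counting used strand is not given in the sources used here, so reads in the Nfatc4 and Ripk3 overlap cannot be assigned to one of them.

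The other NFAT genes were near or under the limit of detection. Nfatc2, best known from T cells and from fusing myoblasts, had 11, 10 and 7 counts in the controls and 14, 18 and 8 after knockdown. The groups overlapped, and the log2 fold change of 0.45 had a 95% interval from -0.35 to 1.26 (edgeR adjusted p 0.321), so a change in either direction was not detectable at this depth. The value was 0.28 without control replicate 3, 0.18 without knockdown replicate 2 and 0.70 without knockdown replicate 3. Nfatc1, the NFAT of heart valve endothelium and osteoclasts, had 1, 2 and 2 counts in the controls and 1, 1 and 0 after knockdown. All of these lie under the detection floor of 3 counts per library (0.217 to 0.232 CPM), which covers counting error only, so no fold is given. Nfat5, a relative that responds to osmotic stress without calcineurin, had 375 ± 15.8 CPM in the controls and 398 ± 21.2 CPM after knockdown (SD, n = 3), and its log2 fold change of 0.09 did not pass (edgeR adjusted p 0.12).

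The RCAN genes moved apart. Rcan1 had 78.2, 78.7 and 72.3 CPM in the controls and 56.4, 62.3 and 59.1 CPM after knockdown. All knockdown values were lower than all control values. The level after knockdown was 77.6% of the control level, or -0.37 on the log2 scale (SE 0.0594, 95% interval -0.49 to -0.24, edgeR adjusted p 1.21e-05). The counts are per gene, so the short NFAT-driven form and the long form of Rcan1 cannot be told apart.

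Rcan2, a related calcineurin regulator first described as a thyroid hormone responsive gene, went the other way. It had 7.21, 6.73 and 9.33 CPM in the controls and 14.7, 13.7 and 12.5 CPM after knockdown. Control replicate 3 was the highest control but still lay below all knockdown libraries. The level after knockdown was 176% of the control level, or 0.81 on the log2 scale (SE 0.13, 95% interval 0.54 to 1.08, edgeR adjusted p 1.06e-05), and the furthest move of the 8 genes in this fit. Rcan2 is longer in span than 95.9% of tested genes, and with the length offset its log2 fold change was 0.49 (edgeR adjusted p 0.00231), no further from 0 than that of Rcan1 in the same fit (-0.52). The remaining family gene, Rcan3, rose by 0.50 from 13.4 ± 2.28 to 18.9 ± 1.95 CPM (SD, n = 3, edgeR adjusted p 0.00069).

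**Figure D2:**
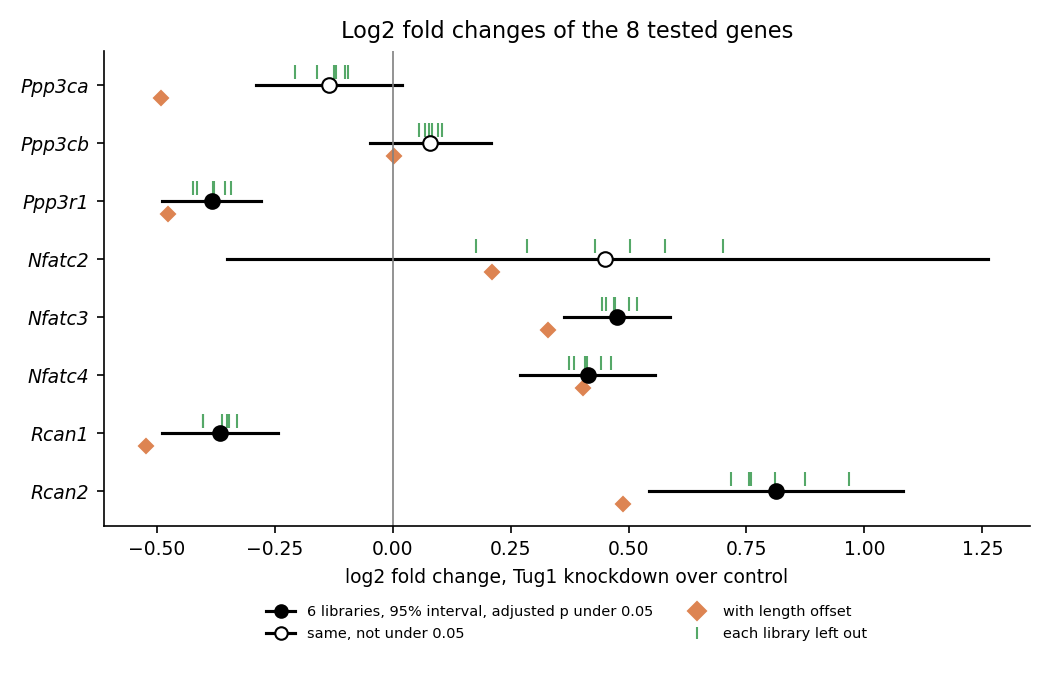
Log2 fold change of Tug1 knockdown over control for the 8 tested genes (circles, filled where the edgeR adjusted p was under 0.05) with 95% intervals; green ticks are fits with a library left out, and orange diamonds the fit with an offset for gene length. The 5 filled genes kept their side of 0 in each of these fits, and Ppp3ca moved from -0.14 to -0.49 with the length offset.

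Ratios within a library do not depend on how libraries are scaled, so 4 of them were compared between the groups with exact two-sided permutation tests. With 3 libraries against 3 the smallest p that an exact permutation test allows is 0.1, so none of the 4 ratios could pass 0.05. Counts of Rcan1 per count of Ppp3ca plus Ppp3cb, the regulator against the enzyme's main catalytic transcripts, were 0.949, 0.956 and 0.895 in the controls and 0.668, 0.773 and 0.754 after knockdown. The groups did not overlap, and the exact permutation p was 0.1 (0.133 adjusted). Counts of Ppp3r1 against the same sum went from 2.65 ± 0.127 to 2.05 ± 0.166 (SD, n = 3), again without overlap (exact permutation p = 0.1, adjusted 0.133). Both ratios were thus lower in every knockdown library than in every control library, at the smallest p the exact permutation test allows.

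Rcan1 against Rcan2 showed the furthest shift. The ratio of their counts was 10.8, 11.7 and 7.75 in the controls and 3.83, 4.55 and 4.75 after knockdown, with no overlap (exact permutation p = 0.1, adjusted 0.133). Control replicate 3 stood below the other controls, because it held the most Rcan2 and the least Rcan1 of the controls. Ppp3ca against Ppp3cb went from 0.806 ± 0.0507 to 0.693 ± 0.0605 (SD, n = 3). These groups overlapped (exact permutation p = 0.2, adjusted 0.2). Such ratios of counts depend on transcript length and are compared between groups only, not read as ratios of molecules. They were not adjusted for the gene-length trend. The length offset moved the log2 fold change of Ppp3ca from -0.14 to -0.49 and that of Rcan2 from 0.81 to 0.49.

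**Figure D3:**
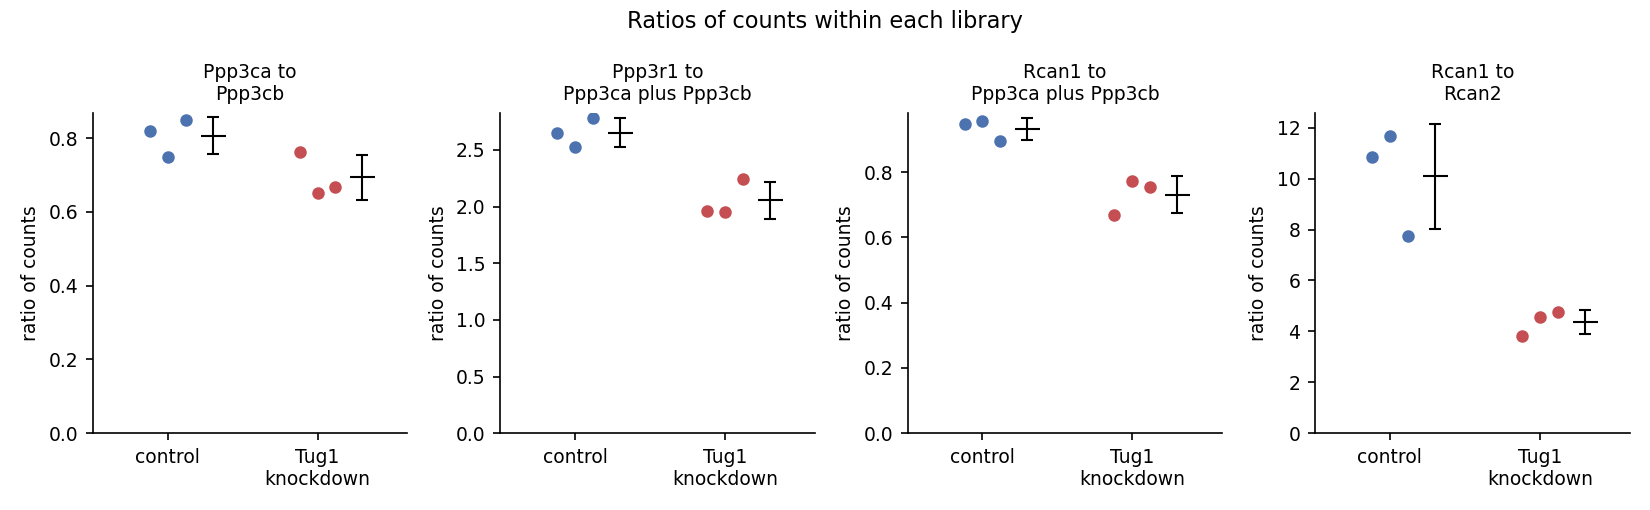
Ratio of counts between the named genes in each library, with axes from 0; points are libraries (control in blue, Tug1 knockdown in red), and the bar is the mean with the SD (n = 3). Rcan1 per Ppp3ca plus Ppp3cb, Ppp3r1 per Ppp3ca plus Ppp3cb and Rcan1 per Rcan2 were lower in every knockdown library than in every control library. Ppp3ca per Ppp3cb overlapped.

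The rest of the pathway was described with lists of genes by role, some of which were known from earlier results of these data to have changed. Upstream, Calm2 and Calm3, genes for calmodulin, which carries the calcium signal to calcineurin, fell by 0.50 and 0.34 on the log2 scale (edgeR adjusted p 5.23e-10 and 2.14e-05). Of 13 calcineurin regulators and anchors, 12 were tested and 9 changed, 5 higher and 4 lower, with a median log2 fold change of 0.08, beside 61.7% called over all tested genes. The number called higher was 3 without control replicate 1, and the number called lower was 2 without control replicate 3. Akap5, which anchors calcineurin at the plasma membrane, fell by 0.48, and Cib1, a calcineurin-binding calcium sensor, fell by 0.32 (-0.19 with the length offset). Fkbp8, which binds the phosphatase, rose by 0.27. The call for Akap5 was lost without control replicate 3 (-0.32, edgeR adjusted p 0.0871).

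Most of the called kinases that act against calcineurin on NFAT were higher. Of 14 on the list 13 were tested, with 8 higher, 2 lower and 3 not changed beyond the threshold, and a median log2 fold change of 0.33. Over all tested genes 30.8% were higher and 30.9% lower, with a median of 0.00. Gsk3b, a kinase that drives nuclear export of NFAT, had 107 ± 4.82 CPM in the controls and 198 ± 5.42 CPM in the knockdown libraries (SD, n = 3), and so rose by 0.89 on the log2 scale (edgeR adjusted p 9.6e-13). The priming kinases Dyrk1a and Dyrk1b rose by 0.66 and 0.87. Mapk14, the p38 alpha kinase, rose furthest, by 1.53, from 44.8 ± 3.65 to 129 ± 1.83 CPM (SD, n = 3, edgeR adjusted p 2.17e-15). Dyrk3 (-0.63) and Csnk1e (-0.39) were the kinases that fell. With the length offset Dyrk1a stood at 0.44 and Gsk3b at 0.62. Of the 7 shuttling genes, scaffolds and relatives, 6 were tested and only 2 changed, a called share under the 61.7% of all tested genes. Kpnb1, an import receptor, rose by 0.64, while Xpo1, the export receptor that carries NFAT out of the nucleus, fell by 0.33.

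Most of the called partners of NFAT on DNA were lower. Of 14 on the list 13 were tested, with 2 higher and 7 lower and a median log2 fold change of -0.26, beside 30.8% higher and 30.9% lower over all tested genes. The AP-1 genes Fos, Junb and Fosl1 fell by 1.53, 1.04 and 0.89 (edgeR adjusted p 2.6e-11, 2.3e-12 and 7.23e-10). Fos went from 29.1 ± 1.42 to 10.1 ± 1.80 CPM and Junb from 264 ± 30.3 to 129 ± 4.45 CPM (SD, n = 3). Gata6, a heart factor that binds with NFAT, fell by 0.75. Mef2d rose by 0.69 and Fosl2 by 0.20, and Gata4 (-0.26), Jund (0.03), Mef2a (0.03) and Mef2c (-0.03) did not pass the threshold. With the length offset all 13 tested partners were called, these included, with 3 higher and 10 lower. Other calcineurin substrates were mixed, with 3 higher and 2 lower of 10 tested, a called share under the 61.7% of all tested genes. The number called lower was 1 without control replicate 2 and 0 with library totals. With the length offset 7 substrates were called. Crtc1, a coactivator of CREB, rose by 0.70, Itpr1, a calcium release channel, by 0.64 (0.27 with the length offset) and Elk1 by 0.26, while Tfe3 fell by 0.17. Tfe3 lost its call when library totals replaced TMM (-0.12, edgeR adjusted p 0.064) and with the length offset (-0.11, edgeR adjusted p 0.0669).

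**Figure D4:**
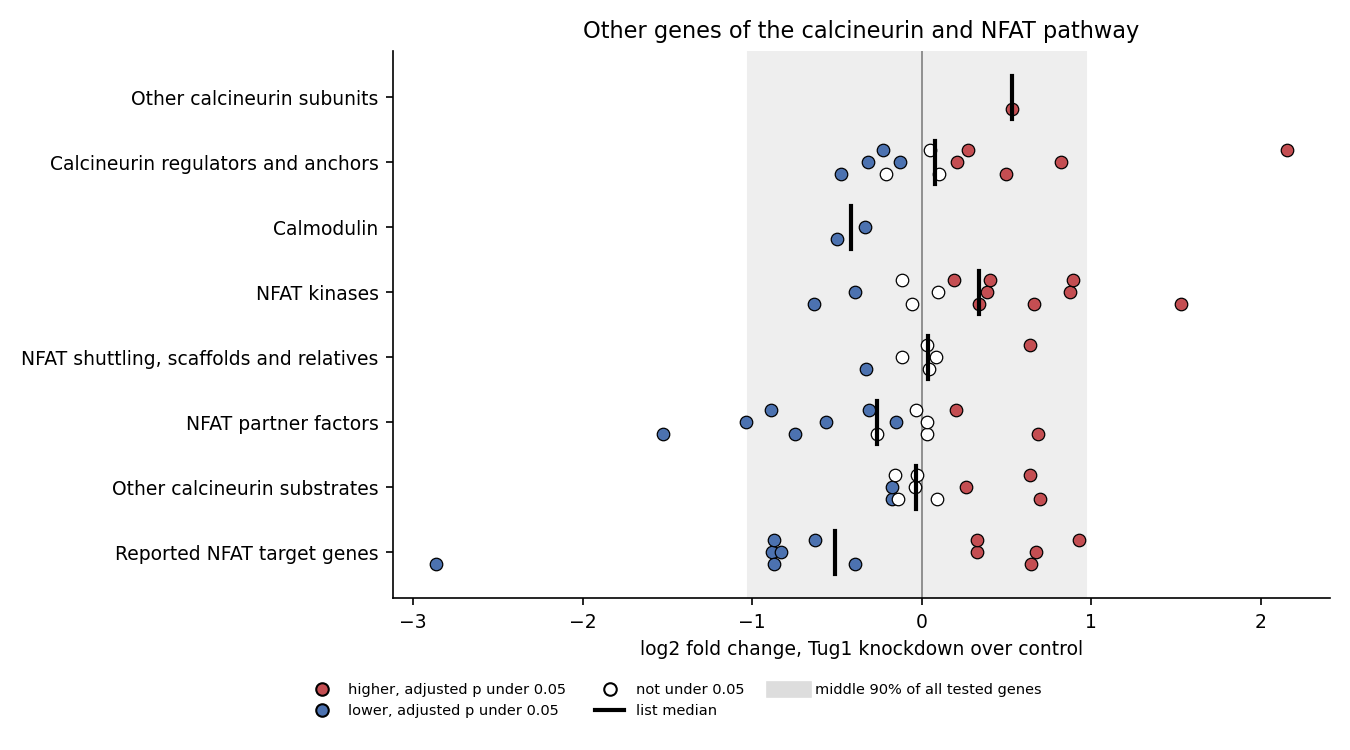
Log2 fold change of Tug1 knockdown over control for the tested genes of each role in the pathway (red higher, blue lower, white not past the threshold), with the list median as a black bar and the middle 90% of all tested genes shaded. Among kinases 8 were higher and 2 lower, among partner factors 2 were higher and 7 lower, and Edn1 is the point near -2.87.

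Genes that other work has reported as NFAT targets moved in both directions. Of 22 on the list 12 were tested, and all 12 changed, 5 higher and 7 lower, beside 61.7% called over all tested genes. Edn1, Trpc1, Trpc6 and Atp2b4 were known to have changed when the list was written, so this count is no independent evidence. Ptgs2, the inducible cyclooxygenase gene, fell by 0.89 from 39.7 ± 3.25 to 21.5 ± 1.94 CPM (SD, n = 3, edgeR adjusted p 4.06e-09), and the cytokine gene Il6 fell by 0.87 (edgeR adjusted p 1.18e-05). Edn1, the endothelin 1 precursor, had a log2 fold change of -2.87. Atp2b4, a plasma membrane calcium pump, rose by 0.93.

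Of the hypertrophy markers by which calcineurin signalling is usually followed in heart, Nppa, Nppb and Myh7 could not be read in these cells. Nppb had 0 counts in all 6 libraries, which allows up to 3 counts, and Nppa had 0, 2 and 0 counts in the controls and 4, 0 and 1 after knockdown. Myh7 had 0 to 2 counts per library. Acta1, on the list of reported targets, could be read. Its level rose by 0.32 on the log2 scale, from 174 ± 1.44 to 218 ± 3.19 CPM (SD, n = 3, edgeR adjusted p 1.56e-06). The skeletal myoblast markers Myog, Des, Tnni1 and Ckm were higher too and Myod1 lower. The part of that shift in the rise of Acta1 was not tested. The cytokine genes of activated T cells were at the floor, with Il2 at 0 counts in every library and Il4 at 0 or 1. RNA levels do not show calcineurin activity or where NFAT protein was, and neither was measured here.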

How the data were processed

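Per the submitters' processing notes, the tools named were FastQC 0.11.7, fastp 0.14.1 and STAR 2.5. The counting tool, genome build, annotation and use of strand are not given in the sources used here. The deposited values are unscaled whole-number counts for each gene symbol in 6 libraries (3 per group), with 0 columns outside them. Groups and replicate numbers come from the sample titles. All 40456 genes entered edgeR 4.0.16 (R 4.3.3): filterByExpr (minimum count 10, minimum total 15) kept 14216, TMM scaled the libraries, and the two-sided quasi-likelihood test of group was adjusted by Benjamini-Hochberg over all tested genes, with a threshold of 0.05. SE and 95% intervals come from the same fit. Levels are CPM with the SD. Precision follows from 12.9 to 13.8 counts per CPM.

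The 9 genes and the pathway lists were chosen with earlier results of these data known. Named list genes are Calm2 and Calm3, other calcineurin subunits, and up to 4 called genes per list with the largest absolute change at a mean of at least 5 CPM. A gene that met the rule is not reported here. Csnk1e, Dyrk3, Mef2a, Mef2c, Mef2d, Fosl2, Gata4, Jund, Acta1, Nfat5 and the genes at the floor were named after their values were seen. Levels are not compared between genes, since transcript lengths were not used here. The fit was tested on simulated data. Alternatives were DESeq2 size factors, library totals, the Wald test of DESeq2 1.42.0, voom from limma 3.58.1, 2 other filters, an adjusted p under 0.01, a replicate block, an offset for gene length (lowess span 0.3 on log2 genomic span from the RefSeq GRCr8 table, available for 92.0% of tested genes) with and without the block, and each library left out.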

Additional observations from a re-analysis of the deposited data

How the results depend on the processing

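Of the 8 tested genes, 7 kept their direction and call in all alternatives that tested them, and Ppp3ca kept its direction. Ppp3ca became a call with the length offset (-0.49, and -0.49 with the replicate block added) and without knockdown replicate 1, with a range of -0.207 to -0.0939 when each library was left out. The number of changed genes among the 9 was 5 or 6 in every alternative. Log2 fold changes of the called genes ran from -0.48 to -0.33 for Ppp3r1, 0.33 to 0.53 for Nfatc3, 0.37 to 0.47 for Nfatc4, -0.52 to -0.31 for Rcan1 and 0.49 to 0.97 for Rcan2. The largest edgeR, DESeq2 or voom adjusted p among these was 0.00379, for Rcan2 with the length offset and the block. All tested genes gave 7353 to 8987 calls. Of 25 other named genes, 23 kept direction and call in all 16 alternatives, and Akap5 and Tfe3 lost calls. Called substrates numbered 3 instead of 5 with library totals. With the length offset they numbered 7, and called NFAT partners 13 instead of 9. The 4 ratios kept their sign whichever library was left out. For all of these shifts the cause was not tested.

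Libraries with the same replicate number showed no shared shift: after subtraction of group means they correlated at -0.00531, 0.0298 and 0.027. The labels do not say whether they were prepared together, and such correlations cannot show it. With the replicate block Ppp3ca stood at -0.14, Rcan1 at -0.37 and Rcan2 at 0.81, and no call among the 9 genes changed. Depth limits Nfatc1, which only the fits without the count filter could include, and Nfatc2, which the filter at a mean of 1 CPM removed.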
